A study of Mus musculus with 54 samples.

Results

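Liver transcripts of mice with BMAL1 reconstituted only in the liver (Liver-RE) were compared with those of wild-type mice (WT) at ZT20, which is 20 h after lights on and falls in the dark phase. The comparison took 6 of the 54 libraries of the series: Liver-RE at ZT20 and WT at ZT20, with 3 libraries in each group. All mice were female, on a C57BL/6J background and 8 to 12 weeks old, with free access to normal chow and 12 h of light and 12 h of dark a day. Liver-RE mice carry the BMAL1-stop-FL allele. They are labelled as knocked out for BMAL1 with reconstitution in the liver, and how expression was restored there (the Cre and its promoter) is not given in the sources used. The labels number the libraries as replicates without naming animals, so p-values measure the spread between these samples. Of 18079 genes in the table, 11839 had a mean of at least 0.5 FPKM over the 6 libraries and were tested, and 6240 were below that. FPKM is a level scaled by transcript length and by library depth.

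BMAL1, encoded by Arntl, pairs with CLOCK or NPAS2 and binds E-boxes, short DNA elements with the letters CACGTG, in front of genes that include its own repressors of the PER and CRY families. The nuclear receptors REV-ERB, encoded by Nr1d1 and Nr1d2, repress Arntl, which closes a second loop. In the liver this oscillator runs beside rhythms set by feeding, glucocorticoids and other signals from the body, and many genes of lipid, amino acid and xenobiotic metabolism follow the time of day. Nocturnal mice eat mostly in the dark phase, which includes ZT20.

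Arntl measured 9.06, 11.03 and 12.1 FPKM in WT replicates 1 to 3 and 4.68, 8.47 and 10.6 in Liver-RE replicates 1 to 3. The groups overlapped, with Liver-RE replicate 1 the lowest. The 3 libraries at ZT20 of mice lacking BMAL1 (KO) held 8.66, 7.39 and 8.12 FPKM, so the value of the whole gene does not check the genotype labels at this time. Depth, read off the step that 1 read adds to low values, was 33.3 to 36.1 M reads (mega reads) in the WT libraries and 25.6 to 30.2 M reads in the Liver-RE libraries, without overlap; the part of depth in the differences was not tested. The median SD within a group was 0.155 in Liver-RE and 0.157 in WT on the log2(FPKM + 1) scale, inside the range of 0.125 to 0.230 over the 18 groups of the series.

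Clock gene levels were not alike in the 6 livers. Over 19 clock genes, each library was set against the WT mean at each harvest time, leaving itself out, by the root mean square (RMS) difference in log2(FPKM + 1). Liver-RE replicate 1 was nearest to WT at ZT4, with an RMS difference of 0.82, and lay 1.09 from WT at ZT20. With a pseudocount of 0.1 it was nearest to ZT8. Liver-RE replicate 2 was nearest to ZT20 (0.45) and Liver-RE replicate 3 to ZT0 (0.35). WT replicates 1 and 3 were nearest to ZT20 (0.56 and 0.29), and WT replicate 2 to ZT0 (0.38). The KO libraries at ZT20, which lack BMAL1, were nearest to ZT20 or ZT0 as well, at 0.58 to 0.64, so standing nearest to ZT0 is not by itself a difference in clock phase. Liver-RE replicate 1 stood apart from the other 5 libraries, and the named calls that were lost without it are listed with the calls.

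**Figure D1:**
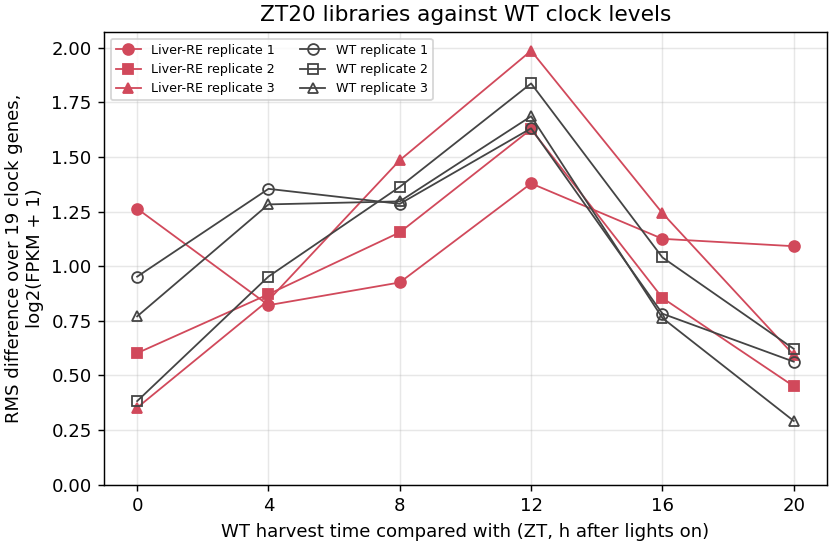
RMS difference over 19 clock genes, in log2(FPKM + 1), between each ZT20 library (lines; 3 Liver-RE filled, 3 WT open) and the WT mean at each harvest time on the x axis in h after lights on. Liver-RE replicate 1 has its lowest point at ZT4, and the other 5 libraries have theirs at ZT20 or ZT0.

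None of the 19 clock genes tested differed between the groups by limma at an adjusted p of 0.05, where 38 of all 11839 genes passed as higher (0.321%) and 42 as lower (0.355%). The 6 activators and their regulators had a median log2 difference of -0.15 (-0.03 without Liver-RE replicate 1), and the 13 repressors and E-box targets had differences from -0.91 to 1.46. Bhlhe41, also on the list, was below the level minimum. The 12 modifiers, mostly kinases and ubiquitin ligases of clock proteins, kept between -0.21 and 0.29, and none passed.

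Nr1d1, the repressor REV-ERB-alpha, measured 0.385, 0.870 and 0.240 FPKM in WT and 10.8, 1.12 and 1.64 in Liver-RE. Each Liver-RE value lay above each WT value, and that of Liver-RE replicate 1 was in the range of the WT mean at ZT4, 9.59 ± 2.17 (SD, n = 3). The log2 difference of 1.46 ± 0.564 (SE) had an adjusted p of 0.226 by limma, and of 0.619 without Liver-RE replicate 1. Cry1, a repressor of BMAL1 and CLOCK, measured 17.3, 9.02 and 17.3 in WT and 3.63, 9.23 and 9.69 in Liver-RE, again with replicate 1 the lowest (log2 difference -0.91, adjusted p = 0.200). Without Liver-RE replicate 1 the difference of Cry1 was -0.52 with a limma adjusted p of 0.511. Liver-RE replicates 2 and 3 of Cry1 lay just above the lowest WT value.

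Nr1d2, the second REV-ERB, measured 5.73, 4.29 and 4.12 FPKM in WT against 14.6, 8.37 and 3.85 in Liver-RE, a spread wider than the gap between the groups. Ciart, a repressor that binds BMAL1, was split inside both groups, with 3.76, 0.378 and 0.881 in WT and 3.21, 0.146 and 0.136 in Liver-RE. Dbp, an output transcription factor of the clock, measured 1.35, 1.21 and 1.98 in WT and 3.94, 2.13 and 0.68 in Liver-RE. Per2, a repressor of the PER family, had 2.08, 1.86 and 3.24 in WT and 1.03, 1.76 and 1.60 in Liver-RE, without overlap and with an adjusted p of 0.516. Nfil3, a repressor that competes with DBP for its sites, also had no overlap, with 14.0, 15.2 and 16.4 in WT and 8.63, 12.2 and 12.6 in Liver-RE (adjusted p = 0.595). Values of all genes without overlap were common, at 6.64% higher and 9.29% lower of those tested.

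**Figure D2:**
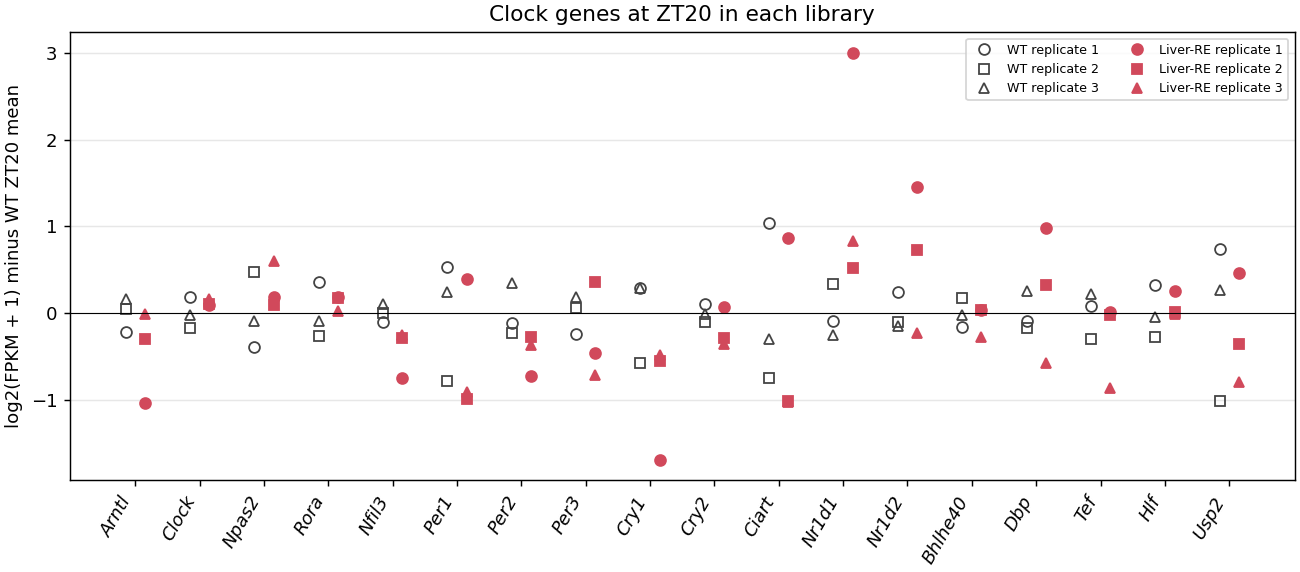
Difference of each ZT20 library from the WT ZT20 mean, in log2(FPKM + 1), for 18 of the 19 clock genes (x axis; open symbols 3 WT and filled symbols 3 Liver-RE libraries). Liver-RE replicate 1 is farthest from 0 for Nr1d1, Nr1d2, Cry1 and Arntl.

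The BMAL1 element is in the promoters of several of these genes. In the 250 bases before the transcript start (RefSeq, GRCm38.p6; a sequence was matched by symbol for 9165 of the 11839 genes), CACGTG, which reads the same on both strands, was in 4 of the 16 clock genes with a sequence (Per1, Cry1, Ciart and Tef) and in 933 of all 9165, or 10.2%. Those of Cry1 (chr10:85185065-85185254, minus strand) and Ciart (chr3:95882239-95882428, minus strand) are shown because they are direct BMAL1 targets whose levels split the libraries above. Each runs 5′ to 3′ on the strand of the gene from 200 to 11 bases before the start, with the element in capitals.
Cry1: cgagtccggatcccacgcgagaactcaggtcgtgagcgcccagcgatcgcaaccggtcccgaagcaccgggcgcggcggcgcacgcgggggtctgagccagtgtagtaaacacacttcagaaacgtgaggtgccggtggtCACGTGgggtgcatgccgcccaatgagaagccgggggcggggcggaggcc
Ciart: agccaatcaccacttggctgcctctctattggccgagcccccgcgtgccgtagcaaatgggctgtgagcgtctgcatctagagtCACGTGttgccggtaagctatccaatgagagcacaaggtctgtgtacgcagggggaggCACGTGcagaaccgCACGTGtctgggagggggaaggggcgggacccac
Cry1 holds 1 copy, starting 60 bases before the transcript start, and Ciart holds 3, starting 116, 58 and 44 bases before it. Among the called genes with a sequence, CACGTG was in 4 of 35 higher (Hnrnpa3, St6galnac3, Lonp2 and Elovl5) and in 1 of 31 lower (Sgk1).

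Over the whole table, Liver-RE had 38 genes higher and 42 lower than WT, 80 in all (0.676%), with 8 and 11 of them at least 2-fold on the log2(FPKM + 1) scale. The spread behind this test came from all 54 libraries. Of the 80, 77 had no overlap between the groups, a pattern that 15.9% of all tested genes showed. With the 6 libraries alone the test called 0 genes, the smallest adjusted p was 0.107, and at an unadjusted p under 0.05 it had 515 higher and 655 lower genes (4.35% and 5.53%), against 722 and 936 (6.1% and 7.91%) with all libraries.

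The calls changed when single libraries were left out, and each such fit also has a smaller group. Without Liver-RE replicate 1 there were 40 higher and 31 lower genes, of which 37 were among the 80. Among the genes named here, Gpd2, Cd36, Bdh1, Them7, Pctp, Abcd3, Lonp2, Decr2, Elovl5, St6galnac3, Csad, Cyp2a4, Hmox1, Fst and Sdsl were not called in that fit, with limma adjusted p-values from 0.0527 (Them7 and Lonp2) to 0.132 (Elovl5), and each kept its direction. Without Liver-RE replicate 2 there were 3 and 9 (11 of the 80), without Liver-RE replicate 3 there were 25 and 24 (34 of the 80). Without WT replicate 1 there were 66 and 145 (61 of the 80), without WT replicate 2 there were 85 and 53 (65 of the 80), and without WT replicate 3 there were 1 and 5 (6 of the 80). Genes at an unadjusted p under 0.05, in either direction, numbered 1658 in the main fit. They numbered 1799, 1208 and 1512 without Liver-RE replicates 1 to 3, and 1927, 1629 and 966 without WT replicates 1 to 3. Counts of list members in the same fits, given below, stand beside these totals. Of the named genes, Timp3, Hamp, Cpxm1 and Dis3l2 were called in all 6 of these fits, and each other named call was lost in at least 1. Quantile normalization gave 87 higher and 64 lower genes, and leaving out the 20 highest genes gave 60 and 52.

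Among the genes that rose, Serpina7 (chromosome X, 139079249 to 139085236), the thyroxine-binding globulin of plasma, had the highest fold. It measured 9.67, 6.99 and 3.88 FPKM in WT and 66.5, 24.4 and 97.3 in Liver-RE. The Liver-RE values were widely spread but each was above WT, with a log2 difference of 2.89 ± 0.558 (SE, n = 3 per group) and an adjusted p of 0.00876 by limma. In KO at ZT20 Serpina7 measured 114, 68.5 and 59.0. Fitm1 (chromosome 14, 55575674 to 55576952), a membrane protein of the endoplasmic reticulum that promotes lipid droplet formation, measured 1.44, 3.34 and 0.921 in WT and 9.10, 7.46 and 6.65 in Liver-RE (log2 difference 1.67 ± 0.349, adjusted p = 0.0173). Cd36 (chromosome 5, 17781690 to 17888959), a fatty acid uptake protein, measured 20.5, 21.7 and 25.7 in WT and 63.3, 44.5 and 48.3 in Liver-RE (log2 difference 1.16 ± 0.259, adjusted p = 0.0233). Both groups of Cd36 were tight, and it was called in 3 of the 6 fits that leave out 1 library.

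Abcd3 and Bdh1 also rose. Abcd3, a peroxisomal importer of fatty acids, measured 144, 180 and 102 FPKM in WT and 263, 260 and 224 in Liver-RE. Bdh1, which interconverts ketone bodies in mitochondria, measured 27.5, 34.5 and 26.2 in WT and 59.0, 69.2 and 46.9 in Liver-RE. Abcd3 and Bdh1 had adjusted p-values of 0.0249 and 0.0372 by limma, and all their Liver-RE values lay above WT. Gpd2, the mitochondrial glycerol-3-phosphate dehydrogenase, rose by a log2 difference of 1.22, and Pctp, a phosphatidylcholine transfer protein, by 0.91. Lonp2, a peroxisomal protease, and Decr2, a peroxisomal reductase of unsaturated fatty acids, rose by 0.71 and 0.72. Decr2 was chosen after its values were seen.

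Cmah, which hydroxylates sialic acid, measured 9.10, 7.10 and 4.95 FPKM in WT and 18.1, 20.1 and 19.3 in Liver-RE (log2 difference 1.36 ± 0.288), and Syt1, a calcium sensor of vesicle fusion, measured 0.992, 0.904 and 0.453 against 3.93, 3.04 and 2.49 (1.22 ± 0.239). The collagen chains Col4a1 and Col4a2 of the basement membrane rose together, by 0.89 and 1.03. They are transcribed head to head from overlapping starts on chromosome 8 (11312826 on the minus strand and 11312805 on the plus strand, RefSeq), and whether the authors' counting used strand is not stated in those sources. Mmp9, a collagen-cleaving protease also carried by neutrophils, measured 0.0696, 0.184 and 0.0635 in WT and 1.00, 1.67 and 1.57 in Liver-RE. Hpf1, a cofactor of PARP1, rose by 0.81, Ociad2 by 0.89 and Them7 by 0.94. Dis3l2, an exoribonuclease, changed less, by 0.65 ± 0.114, with 1.71, 2.70 and 1.99 in WT and 3.93, 4.28 and 3.48 in Liver-RE (adjusted p = 0.00462).

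Among the genes that fell, Timp3 (chromosome 10, 86300412 to 86349505), a matrix-bound inhibitor of metalloproteinases, had the smallest p of all genes. It measured 14.1, 8.32 and 10.7 FPKM in WT and 2.77, 2.25 and 2.73 in Liver-RE, a log2 difference of -1.72 ± 0.170 (SE) with a limma adjusted p of 1.40e-08. The Liver-RE values lay close together and under every WT value, and the KO libraries at ZT20 held 1.77, 3.14 and 2.51. Timp3 lies inside the span of the gene Syn3, so the strand question applies to it too. Hamp (chromosome 7, 30942368 to 30944029), the iron hormone hepcidin, measured 1587, 1082 and 1052 in WT and 349, 187 and 170 in Liver-RE (log2 difference -2.44 ± 0.441, adjusted p = 0.00557). Hamp has a near-identical copy, Hamp2, between which reads may have been split.

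Csad, which makes the taurine precursor hypotaurine, measured 74.0, 122 and 152 FPKM in WT and 11.5, 44.9 and 15.3 in Liver-RE (log2 difference -2.41 ± 0.562, adjusted p = 0.0322). Cyp2a4, a steroid hydroxylase more abundant in female liver and near-identical to Cyp2a5, measured 745, 262 and 427 in WT and 78.2, 249 and 47.6 in Liver-RE (-2.15 ± 0.541, adjusted p = 0.0453). Liver-RE replicate 2 came close to the lowest WT value of Cyp2a4, and the KO libraries held 2.65, 2.58 and 2.97. Hmox1, which degrades heme, measured 47.3, 17.5 and 20.5 in WT and 9.92, 11.1 and 12.3 in Liver-RE (adjusted p = 0.0391). The gap of Hmox1 was widest against WT replicate 1, and its call was kept in 1 of the 6 fits that leave out 1 library.

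Vcam1, an adhesion molecule for leukocytes, measured 30.2, 8.48 and 10.8 FPKM in WT and 7.44, 3.35 and 3.60 in Liver-RE (log2 difference -1.46 ± 0.274). Cxcl13, a chemokine for B cells, measured 2.26, 1.74 and 2.12 in WT and 0.195, 0.228 and 0.473 in Liver-RE (-1.23 ± 0.230), and both had an adjusted p of 0.0068. Mgp, matrix Gla protein, fell by 1.19 on the log2 scale, Adamtsl2, a secreted matrix protein, by 0.95, Dpt, dermatopontin, by 0.87, and Cpxm1, of the carboxypeptidase family, by 0.72. Gsn, the actin-severing protein gelsolin, measured 7.92, 7.43 and 7.33 in WT and 3.88, 2.72 and 3.42 in Liver-RE. Fst, follistatin, an activin antagonist, measured 2.03, 2.02 and 1.91 in WT and 0.381, 0.527 and 0.537 in Liver-RE, while the KO libraries held 1.64, 2.38 and 2.43. Wfdc17 fell by 1.05 and Sdsl, a serine dehydratase-like enzyme, by 0.92.

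**Figure D3:**
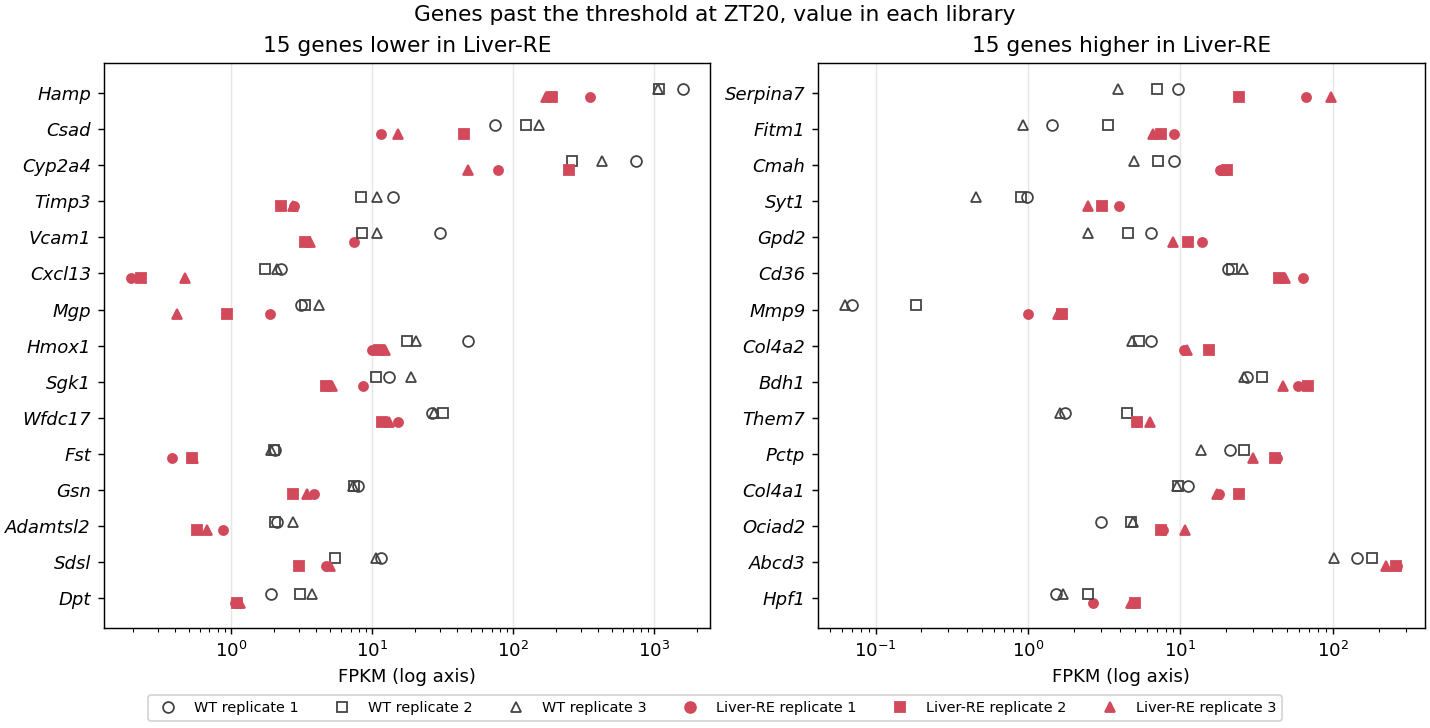
FPKM on a log axis in each of the 3 WT (open) and 3 Liver-RE (filled) libraries at ZT20 for the 15 lowest and 15 highest fold changes past the threshold, among genes whose groups do not overlap. The groups come closest to each other, by the ratio of nearest values, for Cyp2a4, Hpf1 and Sdsl, and Timp3, Fst and Cxcl13 are clearly separated.

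Sgk1, a kinase induced by glucocorticoids, measured 13.2, 10.7 and 18.7 FPKM in WT and 8.59, 4.69 and 5.13 in Liver-RE (log2 difference -1.09 ± 0.279, adjusted p = 0.0491). It is shown because its promoter held both the E-box and a match to the glucocorticoid receptor motif (ACA, 3 bases of any kind, TGT, 1 base of any kind and C), which 202 of all 9165 promoters held on either strand (2.20%). The stretch is chr10:21993640-21993789 (plus strand, RefSeq, GRCm38.p6), from 250 to 101 bases before 1 of 6 annotated starts, 5′ to 3′. Capitals mark the E-box and, further on, the overlapping matches of the receptor motif on the 2 strands.
Sgk1: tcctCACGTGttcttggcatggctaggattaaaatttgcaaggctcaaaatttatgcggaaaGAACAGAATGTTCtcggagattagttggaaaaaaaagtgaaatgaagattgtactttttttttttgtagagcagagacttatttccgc
Of the 31 genes called lower with a sequence, Sgk1 and Cpxm1 held the receptor motif. A match of letters is a description of the sequence.

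The list of genes of fatty acid oxidation and PPAR-alpha, the nuclear receptor that responds to fatty acids, had 28 members tested. Of these 2 rose, Cd36 among them, and 0 fell. At an unadjusted p under 0.05, 15 were higher and 0 lower, against 6.1% and 7.91% of all genes. The median log2 difference of the list was 0.59, against -0.02 over all genes, and over the other 5 harvest times the list had a median of 0.06. Without Liver-RE replicate 1 the list had 7 higher at that level and a median of 0.51, against 7.98% higher and 7.21% lower of all genes, without WT replicate 2 also 7, and without WT replicate 3 it had 4. In the remaining fits 12 were higher without Liver-RE replicate 2, 17 without Liver-RE replicate 3 and 20 without WT replicate 1. The median of the list was 0.90 without WT replicate 1 and 0.38 without WT replicate 2. Vnn1, a pantetheinase, measured 22.1, 6.17 and 4.68 FPKM in WT and 26.9, 33.4 and 25.7 in Liver-RE, and Acadl, a mitochondrial acyl-CoA dehydrogenase, 75.5, 49.2 and 54.8 against 89.5, 88.9 and 83.8 (adjusted p = 0.152 and 0.0815). Cyp4a14, a fatty acid hydroxylase, measured 690, 64.2 and 117 in WT and 796, 382 and 408 in Liver-RE. In Cyp4a14, WT replicate 1 overlapped the Liver-RE values, and Ppara, the receptor itself, measured 45.7, 24.1 and 24.3 in WT and 59.1, 59.8 and 25.4 in Liver-RE.

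The lists of lipid synthesis and storage had medians above 0 whose size depended on single libraries. Of 25 cholesterol synthesis genes 0 were called, 10 were higher and 0 lower at an unadjusted p under 0.05, and the median was 0.69. No member had groups without overlap. The count higher at the unadjusted level was 1 without Liver-RE replicate 3, 1 without WT replicate 1, 17 without WT replicate 2 and 5 without WT replicate 3. Over all genes, in either direction, these fits had 1512, 1927, 1629 and 966 at that level, against 1658 with all libraries. The median was 0.21 without WT replicate 1 and 1.12 without WT replicate 2. Hmgcs1, the enzyme that makes HMG-CoA, measured 43.8, 260 and 85.4 FPKM in WT and 158, 217 and 403 in Liver-RE, and WT replicate 2 was within the Liver-RE range. Nsdhl and Sc5d, later enzymes of the pathway, had log2 differences of 1.05 and 0.85 (adjusted p = 0.194 and 0.226). Of 22 genes of fatty acid and triglyceride synthesis, Elovl5, a fatty acid elongase, rose, with 111, 231 and 121 in WT and 314, 266 and 201 in Liver-RE, overlapping in replicate 2 of WT (adjusted p = 0.0405). The list had 3 higher and 0 lower at the unadjusted level and a median of 0.40; without WT replicate 2 it had 10 higher, and 1 without Liver-RE replicate 2 or without WT replicate 1. Its median was 0.18 without WT replicate 1, 0.66 without WT replicate 2 and 0.24 without WT replicate 3. Of 16 lipid droplet and uptake genes Fitm1 and Cd36 rose, 5 were higher and 0 lower at the unadjusted level, and the median was 0.25. Without Liver-RE replicate 1 that median was 0.0009, with 2 members lower at the unadjusted level. It was 0.39 without Liver-RE replicate 3, 0.51 without WT replicate 1, 0.04 without WT replicate 2 and 0.08 without WT replicate 3.

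Genes that respond to glucocorticoids were lower by their median. Of 18 tested, Sgk1 fell and 0 rose, 6 were lower and 0 higher at an unadjusted p under 0.05, and the median was -0.68, against -0.17 over the other 5 times. The number lower was 11 without Liver-RE replicate 1, with a median of -1.18, and also 11 without WT replicate 2, with a median of -1.14. It was 1 without Liver-RE replicate 2, 3 without Liver-RE replicate 3 and 1 without WT replicate 1. Without WT replicate 1 the median was -0.30 and 2 members were higher, and without Liver-RE replicate 3 1 member was higher. Tat, a tyrosine-degrading enzyme, measured 1409, 431 and 769 FPKM in WT and 943, 124 and 388 in Liver-RE, and Mt2, metallothionein-2, measured 826, 76.0 and 283 against 422, 28.3 and 13.8. Replicate 1 was the highest library of its group for both genes in both genotypes. Of 27 genes of amino acid catabolism and the urea cycle, Sdsl fell, 7 were lower and 0 higher at the unadjusted level, and the median was -0.36. Without Liver-RE replicate 2 that number was 2 and the median -0.07, and without WT replicate 1 the number was 4. Asl, the argininosuccinate lyase of the urea cycle, measured 366, 257 and 339 in WT and 197, 123 and 200 in Liver-RE (adjusted p = 0.148).

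Genes with a sex bias in mouse liver were measured in female mice here. Of 24 female-biased genes Cyp2a4 fell, 8 were lower and 1 higher at an unadjusted p under 0.05, and the median was -0.55, close to the -0.51 of the other 5 times. The number lower was 5 without Liver-RE replicate 2 and 4 without WT replicate 1, and the median was -0.35 without Liver-RE replicate 3. Cux2, a transcription factor of female liver, measured 3.52, 3.71 and 3.98 FPKM in WT and 1.30, 2.39 and 0.404 in Liver-RE. Sult2a1, a sulfotransferase, measured 80.3, 225 and 147 in WT and 78.4, 0.988 and 36.1 in Liver-RE, a Liver-RE spread that passes from near 0 to the lowest WT value. Cyp3a44 had a log2 difference of -2.67, and Cyp2b13 went the other way with 16.3, 48.6 and 10.5 against 82.7, 50.3 and 60.6. None of these 4 passed (adjusted p = 0.198, 0.267, 0.156 and 0.276). Of 20 male-biased genes 0 were called, 3 were higher and 0 lower at the unadjusted level, and the median was 0.48. Cyp2d9, a male-biased cytochrome P450, measured 23.8, 10.8 and 9.29 in WT and 39.3, 75.7 and 72.0 in Liver-RE, without overlap (adjusted p = 0.148), and Nudt7, a peroxisomal coenzyme A hydrolase, 29.9, 111 and 45.3 against 111, 154 and 204 (adjusted p = 0.215).

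Other hepatic programmes had few or no calls. Of 28 acute phase genes Hamp fell, 4 were lower and 0 higher at the unadjusted level, and the median was -0.06. That number was 1 without Liver-RE replicate 2 or Liver-RE replicate 3, 2 without WT replicate 1 and 8 without WT replicate 2, and the median ran from -0.30 without Liver-RE replicate 1 to 0.0055 without WT replicate 1. Saa1, serum amyloid A, measured 43.8, 44.2 and 54.1 FPKM in WT and 24.2, 16.9 and 21.8 in Liver-RE (adjusted p = 0.333), and Lcn2, lipocalin-2, 33.5, 6.70 and 7.45 against 7.02, 2.86 and 3.95. Of 18 NRF2 and antioxidant genes Hmox1 fell and the median was 0.09 (-0.007 without Liver-RE replicate 2). Of 26 clock output genes of liver, Marveld1 fell, with 7.51, 6.84 and 8.60 in WT and 4.04, 5.50 and 4.22 in Liver-RE (log2 difference -0.64 ± 0.127, adjusted p = 0.0129). Loxl4, a lysyl oxidase-like enzyme, had no overlap either, with 2.96, 5.18 and 4.26 against 0.869, 1.52 and 2.75 (adjusted p = 0.0648). Of 20 bile acid genes 0 were called; Cyp7a1, the rate-limiting enzyme of bile acid synthesis, measured 36.9, 143 and 143 in WT and 5.83, 27.8 and 74.9 in Liver-RE, and Nr0b2, its repressor SHP, 3.30, 7.27 and 7.56 against 16.8, 11.8 and 15.7 (adjusted p = 0.208 and 0.295). In NAD metabolism 0 of 17 were called; Nampt, which limits the salvage of NAD, measured 36.1, 26.4 and 29.8 against 15.8, 26.6 and 21.3, and Nnmt, which methylates nicotinamide, 127, 57.0 and 169 against 52.9, 10.1 and 49.9. In 12 further lists 0 members were called: glycogen and glucose, the insulin and fasting response, heat shock, the unfolded protein response, growth hormone, xenobiotic metabolism, interferon, secreted proteins, pericentral and periportal genes, immediate early genes and autophagy. Of 33 xenobiotic genes 6 were higher and 3 lower at the unadjusted level, and the medians of the pericentral and periportal lists, which mark the 2 ends of the liver lobule, were 0.28 and -0.30. The periportal median was -0.12 without Liver-RE replicate 2 and -0.19 without WT replicate 3.

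**Figure D4:**
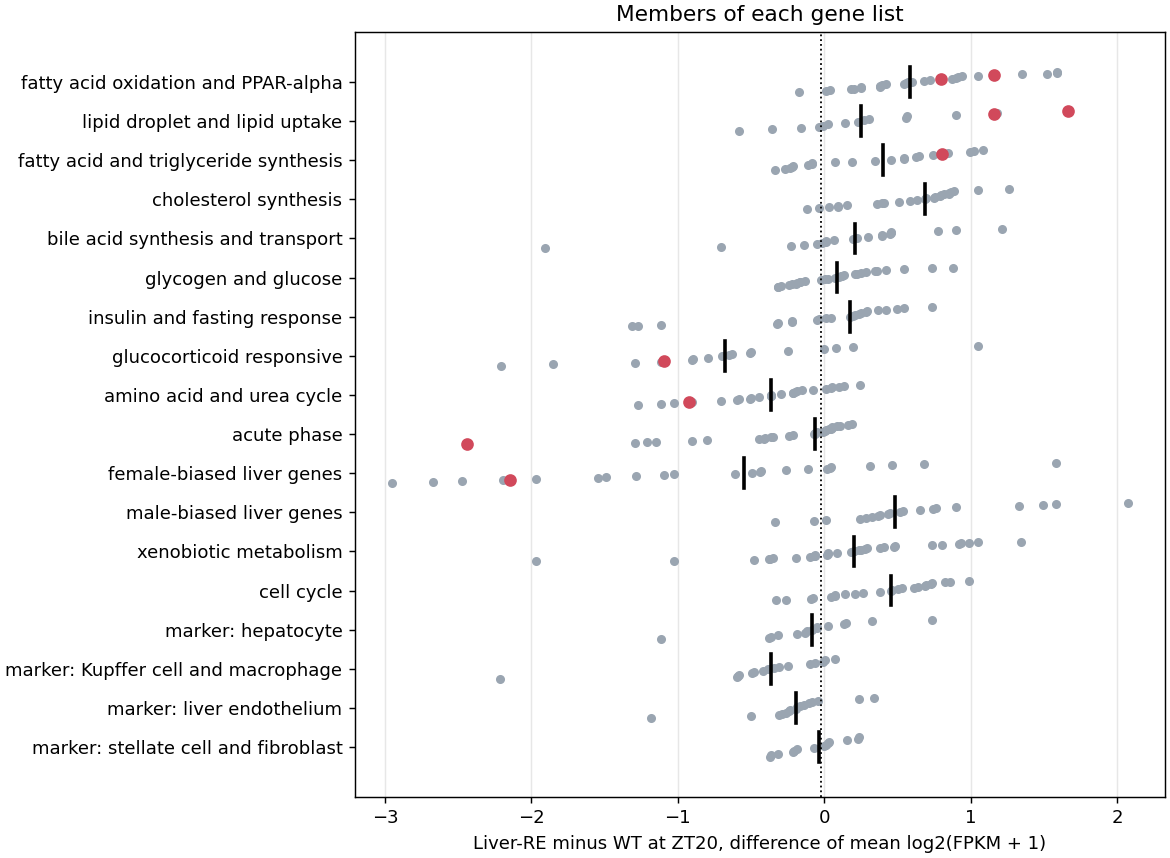
Difference of mean log2(FPKM + 1), Liver-RE minus WT at ZT20 (x axis), of each tested member of 18 gene lists (rows); large red points passed the threshold, black bars are list medians and the dotted line is the median of all 11839 genes, -0.02. The medians run from -0.68 for glucocorticoid responsive genes to 0.69 for cholesterol synthesis, both of which move with single libraries.

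The cell cycle list set 1 library apart. Of 24 members tested 0 were called and 7 were higher and 1 lower at an unadjusted p under 0.05, with a median of 0.46. Mki67, a marker of dividing cells, measured 1.03, 0.864 and 0.906 FPKM in WT and 0.908, 11.2 and 0.850 in Liver-RE. Top2a, the DNA topoisomerase of dividing cells, measured 1.23, 0.701 and 0.958 against 1.08, 14.5 and 0.791, and Pcna, the sliding clamp of replication, 7.73, 8.07 and 8.17 against 7.15, 21.6 and 9.29. Only Liver-RE replicate 2 was high for these 3 genes. Without that library the list had 0 higher and 0 lower at the unadjusted level and a median of -0.04. The number higher was 11 without Liver-RE replicate 1, 14 without Liver-RE replicate 3, 2 without WT replicate 2 and 4 without WT replicate 3. The median was 0.69 without Liver-RE replicate 1. Cdkn1b, an inhibitor of cell division, was lower in each Liver-RE library, with 7.37, 7.50 and 8.79 against 5.91, 5.69 and 6.64 (adjusted p = 0.239).

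In bulk liver, fewer cells of a type and less RNA per cell cannot be told apart. The 15 hepatocyte markers summed to 44571 to 63363 FPKM in WT and 44329 to 56931 in Liver-RE. The 16 Kupffer cell and macrophage markers summed to 452 to 574 in WT and 324 to 405 in Liver-RE, without overlap. None of them was called, and 4 were lower and 0 higher at an unadjusted p under 0.05, against 7.91% and 6.1% of all genes. For 8 of them all Liver-RE values lay under WT, against 9.29% of all genes. The median was -0.36, against -0.23 over the other 5 times. The number lower at the unadjusted level was 2 without Liver-RE replicate 1, 7 without Liver-RE replicate 2 and 2 without WT replicate 1. Marco, a scavenger receptor of macrophages, measured 27.6, 10.6 and 9.65 FPKM in WT and 1.12, 3.54 and 2.65 in Liver-RE (log2 difference -2.22 ± 0.582, adjusted p = 0.061). Clec4f, a lectin of Kupffer cells, measured 78.0, 65.9 and 57.8 against 42.3, 52.5 and 47.3, Vsig4, a complement receptor, 33.3, 32.4 and 26.4 against 15.3, 21.6 and 23.7, and C1qa, a chain of complement C1q, 52.1, 54.6 and 47.0 against 32.3, 34.5 and 34.5. The part of these cells in the lower values of Vcam1, Cxcl13, Hmox1 and the other genes that fell was not tested.

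Markers of other cell types were summed in the same way, and no test compared one cell type with another. The 16 endothelial markers summed to 219 to 282 FPKM in WT and 211 to 231 in Liver-RE, with 1 higher and 2 lower at the unadjusted level. The 2 lower were Lyve1, a hyaluronan receptor of sinusoidal endothelium (9.64, 4.55 and 12.1 against 1.83, 4.65 and 3.15), and Vwf, von Willebrand factor (1.41, 1.69 and 1.21 against 1.10, 0.373 and 0.759). The 1 higher was Stab2, with 21.45, 16.6 and 14.7 in WT and 22.5, 22.7 and 21.46 in Liver-RE. Of the 16 endothelial markers, 14 were below 0 and 2 above, and 0 were called. The endothelial median was -0.19, against -0.02 over all genes and -0.12 over the other 5 times. The 16 stellate cell and fibroblast markers, of which 14 were tested, summed to 183 to 192 in WT and 140 to 174 in Liver-RE, without overlap, with 0 higher and 1 lower, the collagen Col14a1 (18.1, 19.04 and 17.9 against 12.0, 16.9 and 13.5). Of the 14 tested, 7 were above 0 and 7 below, with a median of -0.04 (0.03 without Liver-RE replicate 1). Dcn, a large part of the sum, overlapped, with 95.9, 94.9 and 104 in WT and 68.3, 75.1 and 95.6 in Liver-RE. The lower sum was thus not a fall of most members. The part of stellate cells and fibroblasts in the lower matrix genes Timp3, Mgp and Dpt was not tested. The lymphocyte markers summed to 9.31 to 14.1 in WT and 7.07 to 8.32 in Liver-RE, without overlap, and 1 of 5 tested was lower at the unadjusted level. The cholangiocyte markers summed to 21.8 to 42.0 in WT and 15.4 to 22.3 in Liver-RE, and 0 of 4 tested were lower at that level. Both sets were thus lower in Liver-RE by their sums, the cholangiocyte set with overlap. The neutrophil markers summed to 1.94 to 7.29 in WT and 3.48 to 5.65 in Liver-RE, the erythroid markers to 10.4 to 11.1 and 13.0 to 16.7, and those of pancreatic acinar cells to 3.05 to 5.11 and 5.68 to 6.80. The erythroid and acinar sums were higher in Liver-RE without overlap, and their part in the results was not tested. Among 3 neutrophil markers tested Mmp9 rose and the other 2 did not pass. Adipoq, which defines adipocytes, was at most 0.07 FPKM in the 6 libraries, and Car3, which hepatocytes also express, measured 156, 952 and 429 in WT and 886, 833 and 955 in Liver-RE. Alas2, the heme synthesis enzyme of red cell precursors, measured 9.03, 8.58 and 8.98 against 12.5, 14.2 and 12.8. It thus made up most of the erythroid sum in each library. Hbb-b1, the other erythroid marker tested, overlapped, with 1.34, 0.802 and 1.46 in WT and 0.263, 2.30 and 1.91 in Liver-RE. The higher erythroid sum is therefore mainly a difference of Alas2. Genes of the mitochondrial genome, which can show RNA quality, were looked for under 22 names, and none was among the genes of the deposited values.

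The difference at ZT20 was set against the mean Liver-RE minus WT difference over ZT0, ZT4, ZT8, ZT12 and ZT16. By limma 0 genes passed, with a smallest adjusted p of 0.166, and 1179 genes (9.96%) had an unadjusted p under 0.05. No gene is therefore called particular to ZT20. Without Liver-RE replicate 1 the test called 3 higher and 0 lower genes, without WT replicate 1 it called 2 and 12, and without WT replicate 2 it called 1 and 0. Timp3 had a mean difference of -1.20 at the other times against -1.72 at ZT20, Cd36 1.22 against 1.16, Mmp9 1.21 against 1.12, and Cyp2a4 -1.58 against -2.15. Other genes had a mean near 0 at the other times: Fst -0.03 against -1.01, Syt1 0.01 against 1.22, Cmah 0.09 against 1.36 and Dis3l2 0.03 against 0.65. Such a mean can join differences of both signs. Syt1 had 0.30 at ZT4, -0.74 at ZT12 and 0.56 at ZT16, and Fst ran from -0.37 at ZT0 to 0.26 at ZT12.

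The smallest p-values of that test belonged to Dis3l2, Syt1, Lonp2, Hnrnpa3, Zbtb11os1, Tbl1xr1, Htt, Cmah, Hpf1 and Atp6v1h, and each had an adjusted p of at least 0.166. Htt, which encodes huntingtin, measured 2.58, 2.78 and 2.43 FPKM in WT and 3.60, 3.98 and 4.09 in Liver-RE at ZT20. Atp6v1h, a subunit of the proton pump of lysosomes, measured 27.2, 21.3 and 18.8 against 25.4, 35.2 and 42.7, with overlap. Zbtb11os1, an antisense transcript, measured 2.42, 3.05 and 2.89 against 1.55, 1.13 and 1.30, and cannot be told from its partner gene unless the counting used strand. Esrra, the nuclear receptor ERR-alpha, which was chosen after its values were seen, fell at ZT20 with 8.62, 10.2 and 12.1 against 6.9, 4.83 and 7.02, and had a mean difference of -0.06 at the other times.

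**Figure D5:**
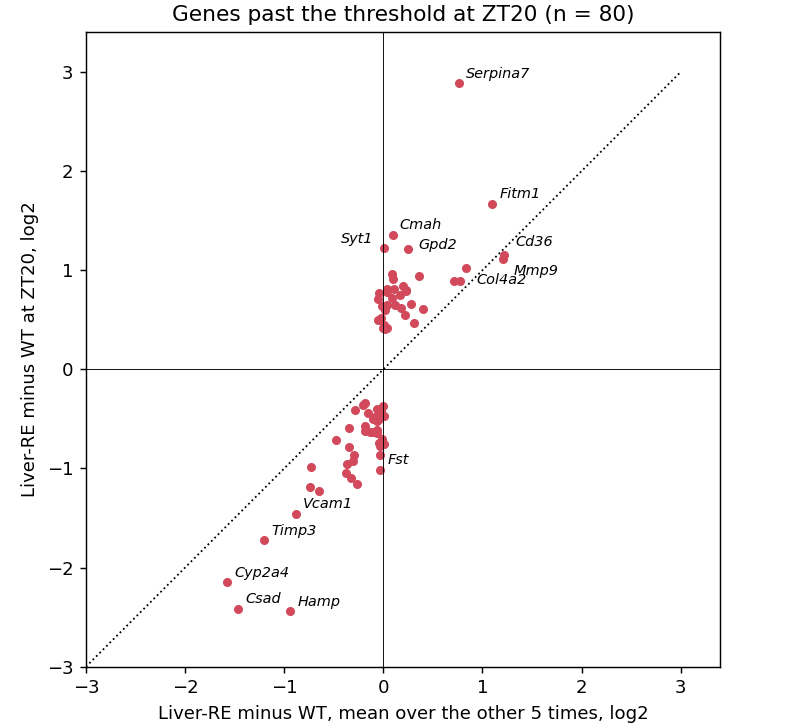
Liver-RE minus WT in log2(FPKM + 1) at ZT20 (y axis) against its mean over the other 5 harvest times (x axis) for the 80 genes called at ZT20; the dotted line marks equal differences. The genes were chosen on the y axis, so their distance from the line is no test. Cd36 and Mmp9 lie near the line, and Fst, Syt1 and Cmah lie near 0 on the x axis.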

How the data were processed

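RNA of 54 mouse livers (3 genotypes, 6 harvest times, 3 libraries each) was sequenced from stranded, ribosomal-RNA-depleted libraries, per the labels' protocols. CASAVA 1.8.2 and mm10 appear, with no role, in the submitters' processing notes; aligner, quantifier and annotation are not stated in the sources. The authors deposited 1 table whose unit is not named; from its values it was taken as FPKM computed by the authors. Depth was estimated from the smallest steps of low values, so it has no counting interval, and no count model was used.

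Values were taken as log2(FPKM + 1), which understates the change of low genes. The main test was limma 3.58.1 in R 4.3.3 (eBayes, trended prior) with a mean for each of 18 groups over all 54 libraries (36 residual degrees of freedom), the contrast Liver-RE minus WT at ZT20, and Benjamini-Hochberg adjustment over 11839 genes at a threshold of 0.05. SEs come from this fit. A second contrast set the ZT20 difference against its mean at the other 5 times. The functions were tested on simulated data. Named were clock genes, the 15 largest calls in each direction by fold (groups not overlapping, higher group mean 1 or more, no predicted genes), up to 4 members per list with the smallest p and the 10 smallest p of the second contrast; the text leaves out some for length. Clec4f, Cpxm1, Cyp2b13, Cyp4a14, Decr2, Esrra, Mki67, Mt2, Pcna, Ppara, Sc5d, St6galnac3, Sult2a1, Top2a and Vnn1 are outside this rule and were chosen after their values were seen. The members, the 40 gene lists and the settings were chosen with earlier results of these data known. Python 3.11.15, pandas 2.3.3, numpy 2.4.6 and matplotlib 3.10.9 were also used. Coordinates are RefSeq on GRCm38.p6, the assembly mm10 names, matched by symbol.

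Alternatives were the 6 or the 36 WT and Liver-RE libraries alone, a replicate block, a pseudocount of 0.1, no filter, 2 scalings, robust empirical Bayes, and libraries left out. The lists without each library and the clock distance with a pseudocount of 0.1 were added after the data were seen. Results for some members are not reported here.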

Additional observations from a re-analysis of the deposited data

Results flagged for a closer look

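In these data 3 genes called at ZT20 had Liver-RE values on the opposite side of WT at another harvest time, again without overlap. Syt1, higher at ZT20 by a log2 difference of 1.22, was lower at ZT12 by -0.74. Pctp, higher at ZT20 by 0.91, was lower at ZT4 by -0.38. Marveld1, lower at ZT20 by -0.64, was higher at ZT4 by 0.49. The difference between these pairs of times was not tested; the test of ZT20 against the mean of the other 5 times gave adjusted p-values of at least 0.215 for these 3.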

How the results depend on the processing

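With the 6 libraries alone, 0 genes were called higher and 0 lower, with or without the replicate block. A pseudocount of 0.1 gave 37 higher and 27 lower genes, quantile normalization 87 and 64, and leaving out the 20 highest genes 60 and 52. The 36 WT and Liver-RE libraries gave 34 and 33, no filter 39 and 58, and robust empirical Bayes 37 and 40. The replicate block over all libraries gave 41 and 47, with 78 of the 80 genes shared. Same-numbered libraries had correlations of 0.41, -0.02 and 0.17 in their deviations from the group means, and differently numbered ones ran from -0.41 to 0.37. By limma the block raised the genes at an unadjusted p under 0.05 from 1658 to 1759 with all libraries. With the 6 libraries alone it raised them from 1170 to 1449. With 3 libraries a group, these values cannot decide whether the numbers pair the samples. Leaving out 1 library gave 1 to 85 higher and 5 to 145 lower genes. For the difference from the other times it gave 0 to 3 higher and 0 to 12 lower genes, against 0 and 0. Leaving out Liver-RE ZT20 replicate 1 and WT ZT8 replicate 2 gave 49 and 38, and 4 and 0 for the difference. Of the genes described with their values in the text, 4 turned direction, none of them called. With 1 library left out, Ciart ran from -1.02 to 0.13 (without WT replicate 1), Dbp from -0.122 to 0.66 (negative without Liver-RE replicate 1, also with WT ZT8 replicate 2 out), Mki67 from -0.0401 to 1.32 and Top2a from -0.0131 to 1.54 (negative without Liver-RE replicate 2). The causes were not tested. The groups differ in depth, and with 3 libraries a group the number of samples limits the precision.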
